A study of Mus musculus with 6 samples.

Results

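Ly6g, Retnlg, G0s2, Asprv1, Mmp25, Fpr1, Fpr2 and Padi4 are 8 genes of the surface and effector programme of mature neutrophils, taken by symbol from the 43432 genes of the normalized count table after Ensembl identifiers were matched to a mouse annotation. They were measured by bulk RNA-seq in CD11b+ spleen cells of WT iGB6 and IgHMOG iGBGFP recipients. None of the 8 passed the test between these groups, against 6.12% of all genes tested. For each of the 8 the libraries of the groups overlapped, while 23.6% of the genes tested did not overlap. Of the genes of earlier maturation stages, 9 of 9 tested primary granule and precursor genes were higher in WT iGB6, as were 3 of 17 secondary and tertiary granule genes, where 14 did not pass. Of 24 other tested genes listed for the late stage, 6 were lower and 18 did not pass. Over all genes tested, 2.75% were higher and 3.37% lower. Each of these stage counts was 0 without sex in the model, and 0 without IgHMOG iGBGFP replicate 2.

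The recipients were all C57BL/6J mice with the Rag1 KO genotype, whose age the labels do not give, sampled on day 8 after transfer. Such hosts form no mature T or B cells but keep their own myeloid cells. Each mouse was given 2D2 CD4+ T cells, which carry a transgenic receptor for myelin oligodendrocyte glycoprotein (MOG), and MOG-loaded B cells grown in the iGB culture. For WT iGB6 (3 mice) the B cells were wild type and were transduced with the retroviral construct pMSCV-IRES2-eGFP carrying Il6. For IgHMOG iGBGFP (3 mice) the B cells had the IgHMOG genotype and an empty pMSCV vector. Genotype and vector changed together, so their parts in any difference cannot be told apart. Replicate 1 was female and replicates 2 and 3 were male in both groups.

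Neutrophils form in steps from granulocyte precursors. Primary granule proteins such as myeloperoxidase are made first, secondary and tertiary granule proteins next, and receptors for chemoattractants and effector proteins of the circulating cell last. Ly6g is the surface antigen most used to mark mouse neutrophils, and its level increases as the cells mature. In bulk RNA, fewer cells of a type and less RNA per cell cannot be told apart.

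The promoter windows of 4 of the genes are printed because Ly6g and Asprv1 had the highest and the lowest fold change of the 8 with all libraries in the fit, and because Fpr1 and Fpr2 are neighbours on chromosome 17 that are transcribed away from each other. Each window holds the 250 bases before the RefSeq start site (GRCm38.p6), 5′ to 3′ on the strand of the gene. Capitals mark matches, on either strand, to a C/EBP motif (TTGCNNAA), a PU.1 motif (GAGGAA) or a STAT motif (TTCNNNGAA), named for transcription factor families that act in myeloid cells. The windows are chr15:75155011-75155260 (+ strand) for Ly6g, the first of its 2 RefSeq windows, chr6:86627924-86628173 (+ strand) for Asprv1, chr17:17883940-17884189 (- strand) for Fpr1 and chr17:17887574-17887823 (+ strand) for Fpr2.
Ly6g: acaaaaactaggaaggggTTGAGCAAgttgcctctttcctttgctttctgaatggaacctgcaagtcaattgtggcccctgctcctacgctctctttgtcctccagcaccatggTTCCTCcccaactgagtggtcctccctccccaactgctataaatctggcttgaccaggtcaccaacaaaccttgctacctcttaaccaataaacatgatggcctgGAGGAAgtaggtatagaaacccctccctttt
Asprv1: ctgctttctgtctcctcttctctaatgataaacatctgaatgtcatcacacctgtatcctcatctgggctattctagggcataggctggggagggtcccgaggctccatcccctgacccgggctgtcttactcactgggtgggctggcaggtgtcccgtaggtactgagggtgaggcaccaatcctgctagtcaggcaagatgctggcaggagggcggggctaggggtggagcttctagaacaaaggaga
Fpr1: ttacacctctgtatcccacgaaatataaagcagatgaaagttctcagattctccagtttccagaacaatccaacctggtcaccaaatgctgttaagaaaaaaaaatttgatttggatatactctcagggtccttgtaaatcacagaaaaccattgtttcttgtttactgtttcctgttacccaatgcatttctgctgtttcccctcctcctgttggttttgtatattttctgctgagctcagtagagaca
Fpr2: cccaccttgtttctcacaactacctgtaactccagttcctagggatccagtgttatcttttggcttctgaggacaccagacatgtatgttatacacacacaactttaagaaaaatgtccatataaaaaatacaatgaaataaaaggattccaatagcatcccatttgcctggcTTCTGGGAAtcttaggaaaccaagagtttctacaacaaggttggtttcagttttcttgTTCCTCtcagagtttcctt
The Ly6g window held 1 C/EBP match and 2 PU.1 matches, and the Fpr2 window held 1 PU.1 and 1 STAT match. No match to these letters was found in the Asprv1 and Fpr1 windows, nor in those of G0s2 and Padi4. Retnlg had 1 C/EBP match and Mmp25 had 1 PU.1 match. No match overlapped another. Of 32851 promoter windows of the same length, 9.56% held the C/EBP letters, 23.3% the PU.1 letters and 7.02% the STAT letters. A match describes the sequence and does not show that a factor binds there.

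Depth was 5955142 to 7564254 reads in WT iGB6 and 5196339 to 6611212 in IgHMOG iGBGFP. Itgam, which encodes CD11b, averaged 10809 normalized counts in WT iGB6 and 7865 in IgHMOG iGBGFP. Its libraries overlapped between the groups, and it did not pass (limma adjusted p = 0.203). Among 9923 genes tested with limma on log2(normalized count + 1), with sex as a term and Benjamini-Hochberg adjustment, 607 passed an adjusted p of 0.05. That is 6.12% of the genes tested, with 2.75% higher and 3.37% lower in WT iGB6. This count rested on single libraries: it was 4 without IgHMOG iGBGFP replicate 2, 26 without IgHMOG iGBGFP replicate 3, 128 without IgHMOG iGBGFP replicate 1, 135 without WT iGB6 replicate 1 and 1083 without WT iGB6 replicate 2. It was 10 without the sex term. Without replicate 1 of either group, the sex term left the fold changes to the males. Such fits, here and below, repeat the comparison of the males alone.

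Set against that share, 0 of the 8 genes passed in limma, and 3 of 8 (Ly6g, Asprv1 and Mmp25) had an unadjusted p under 0.05, against 24.5% of all genes tested. edgeR on the recovered reads called 0 of 8, against 6.11% of all genes, and 2 of 8 had an unadjusted p under 0.05. DESeq2 called 0 of 8, against 9.58%, with 3 of 8 at an unadjusted p under 0.05. The authors' deposited table also lists 0 of 8 under an adjusted p of 0.05, against 8.18% of its genes. The groups did not overlap for 0 of the 8 genes, against 23.6% of the genes tested. Without WT iGB6 replicate 2, Ly6g (adjusted p = 0.0426) and Asprv1 (adjusted p = 0.00244) passed in limma. In that fit 1083 of all 9923 genes passed, against 607 with every library.

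**Figure D1:**
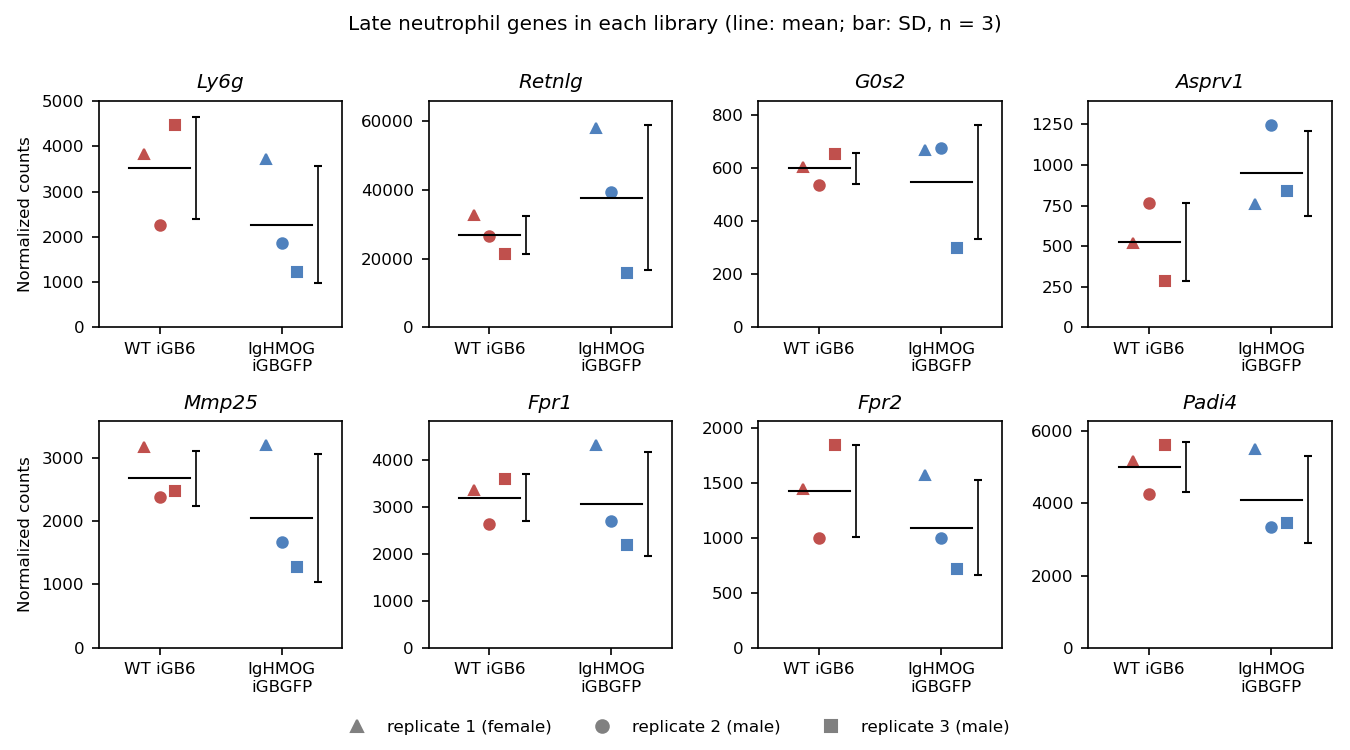
Normalized counts (y axis, from 0, one panel per gene) of the 8 genes in each library, WT iGB6 left and IgHMOG iGBGFP right, with the marker shape giving the replicate, a line the mean and a bar the SD (n = 3 each). The groups overlap in every panel, and Ly6g in IgHMOG iGBGFP spans 1223 to 3713.

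Of the surface genes, Ly6g (ENSMUSG00000022582, chr15:75155240-75159126, + strand) encodes a GPI-anchored antigen of the Ly6 family. Ly6g had 3822, 2272 and 4467 normalized counts in WT iGB6 replicates 1 to 3, against 3713, 1869 and 1223 in IgHMOG iGBGFP replicates 1 to 3. WT iGB6 replicates 1 and 3 were the highest, the female IgHMOG iGBGFP library came next, and the male WT iGB6 replicate 2 lay within the IgHMOG iGBGFP range. The mean was 3520 ± 1128 in WT iGB6 and 2268 ± 1292 in IgHMOG iGBGFP (SD, n = 3 each), a log2 fold change of 0.73 with a standard error of 0.30 (limma adjusted p = 0.172). It was 0.35 without WT iGB6 replicate 3, below the 0.40 of Mmp25 in that fit, 0.46 without IgHMOG iGBGFP replicate 3, and 1.07 without the female library of either group. Only 0.448% of the 50-base stretches of Ly6g occur in another gene.

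Among the other Ly6 genes, 5 of 10 family members were tested, Ly6g included, and 2 were lower in WT iGB6. Ly6i averaged 50.1 normalized counts in WT iGB6 and 122.6 in IgHMOG iGBGFP, a log2 fold change of -1.26 (limma adjusted p = 0.0197). Ly6e, a broadly expressed member, averaged 4782 in WT iGB6 and 9851 in IgHMOG iGBGFP, a log2 fold change of -1.04 (limma adjusted p = 0.0307). Ly6c2, carried by classical monocytes, had a log2 fold change of 0.18 (limma adjusted p = 0.624).

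Fpr1 and Fpr2 encode G protein-coupled receptors that guide neutrophils towards bacterial formylated peptides and, for Fpr2, a wider set of ligands. Fpr1 (ENSMUSG00000045551, chr17:17876471-17883940, - strand) had 3353, 2627 and 3581 normalized counts in WT iGB6, against 4303, 2688 and 2184 in IgHMOG iGBGFP. Both the highest and the lowest value belonged to IgHMOG iGBGFP libraries. The mean was 3187 ± 498 in WT iGB6 and 3059 ± 1107 in IgHMOG iGBGFP (SD, n = 3 each), with a log2 fold change of 0.11 and a 95% interval of -0.37 to 0.58 (limma adjusted p = 0.800). Its sign turned to -0.088 without WT iGB6 replicate 3 and to -0.045 without IgHMOG iGBGFP replicate 3, and it was 0.17 without WT iGB6 replicate 2 and 0.34 without the female library of either group.

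Fpr2 (ENSMUSG00000052270, chr17:17887824-17893952, + strand) had 1439, 999 and 1840 normalized counts in WT iGB6, against 1567, 994 and 715 in IgHMOG iGBGFP. The highest library was WT iGB6 replicate 3 and the lowest IgHMOG iGBGFP replicate 3. The log2 fold change was 0.42 with a 95% interval of -0.18 to 1.01 (limma adjusted p = 0.372). It was 0.087 without WT iGB6 replicate 3, 0.20 without IgHMOG iGBGFP replicate 3 and 0.69 without the female library of either group. Its count is uncertain, since 31.5% of its 50-base stretches also occur in Gm5966, Fpr3 or Fpr1. Of the 7 receptors in the family only Fpr1 and Fpr2 had enough counts to be tested. Of 3 genes for protein ligands of the receptors, Saa3 was higher, with 1112 ± 82.3 normalized counts in WT iGB6 and 34.1 ± 35.9 in IgHMOG iGBGFP (SD, n = 3 each; limma adjusted p = 0.00157), while Camp (log2 fold change 0.90) and Anxa1 (0.72) did not pass.

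Other chemoattractant receptors and their signalling genes stood beside these values. Of 9 tested receptors, Fpr1 and Fpr2 included, 2 were lower in WT iGB6. The chemokine receptor Cxcr2 averaged 4632 normalized counts in WT iGB6 and 8549 in IgHMOG iGBGFP (limma adjusted p = 0.0360). The complement receptor C3ar1 averaged 50.3 in WT iGB6 and 111 in IgHMOG iGBGFP (limma adjusted p = 0.0327). Of 18 signalling genes, 1 passed: Rgs2, a regulator of G protein signalling, was lower, with 2059 in WT iGB6 and 4277 in IgHMOG iGBGFP (limma adjusted p = 0.0187). The GTPase gene Rac2, the most abundant of them, had a log2 fold change of 0.24 and did not pass.

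Mmp25 and Asprv1 encode proteases, and they differed in sign. Mmp25 (ENSMUSG00000023903, chr17:23628311-23645277, - strand), a GPI-anchored membrane-type matrix metalloproteinase also called leukolysin, had 3181, 2382 and 2481 normalized counts in WT iGB6, against 3203, 1671 and 1277 in IgHMOG iGBGFP. The female libraries of both groups were the highest and nearly equal, and the male WT iGB6 libraries lay above the male IgHMOG iGBGFP libraries. The log2 fold change was 0.49 with a standard error of 0.20 (limma adjusted p = 0.176). It was 0.30 without IgHMOG iGBGFP replicate 3 and 0.73 without the female library of either group. It was the only membrane-type metalloproteinase gene of 6 with enough counts to be tested.

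Asprv1 (ENSMUSG00000033508, chr6:86628164-86629710, + strand), a retroviral-like aspartic protease known best from the epidermis, had 522, 764 and 286 normalized counts in WT iGB6, against 757, 1244 and 842 in IgHMOG iGBGFP. WT iGB6 replicate 2 just exceeded the lowest IgHMOG iGBGFP library, and the other WT iGB6 libraries were below all of that group. The mean was 524 ± 239 in WT iGB6 and 948 ± 260 in IgHMOG iGBGFP (SD, n = 3 each), a log2 fold change of -0.93 with a standard error of 0.33 (limma adjusted p = 0.116). It was -0.47 without WT iGB6 replicate 3 and -1.28 without WT iGB6 replicate 2. It passed in limma without a filter on low counts (adjusted p = 0.0163). The authors' deposited table gives a log2 fold change of -0.75 and an adjusted p of 0.0738.

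Retnlg (ENSMUSG00000022651, chr16:48872621-48874496, + strand) encodes a secreted resistin-like protein, and it was the most abundant of the 8 genes. It had 32599, 26673 and 21406 normalized counts in WT iGB6, against 57876, 39419 and 15832 in IgHMOG iGBGFP. Libraries of IgHMOG iGBGFP were both the highest and the lowest, with a ratio of 3.66 between them, against 1.52 in WT iGB6. The log2 fold change was -0.32 with a 95% interval of -1.09 to 0.45 (limma adjusted p = 0.616). It was -0.016 without IgHMOG iGBGFP replicate 2, -0.064 without the female library of either group, -0.48 without WT iGB6 replicate 2 and -0.77 without IgHMOG iGBGFP replicate 3. In its family Retn was the other gene tested, with a log2 fold change of -2.19 at low counts (limma adjusted p = 0.0738).

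Padi4 and G0s2 act inside the cell. Padi4 (ENSMUSG00000025330, chr4:140745865-140774236, - strand), the enzyme that citrullinates histones when neutrophils release extracellular traps, had 5191, 4252 and 5611 normalized counts in WT iGB6, against 5507, 3354 and 3457 in IgHMOG iGBGFP. The female IgHMOG iGBGFP library lay within the WT iGB6 range and the male ones below it. The log2 fold change was 0.32 with a 95% interval of -0.13 to 0.76 (limma adjusted p = 0.365). It was 0.15 without WT iGB6 replicate 3 and 0.52 without the female library of either group. Its relative Padi2, of 3 tested genes of the family the 1 that passed, was lower, with 15.4, 33.2 and 16.9 normalized counts in WT iGB6, against 103, 211 and 209 in IgHMOG iGBGFP (limma adjusted p = 0.00157).

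G0s2 (ENSMUSG00000009633, chr1:193272161-193273217, - strand), an inhibitor of adipose triglyceride lipase, had 605, 536 and 654 normalized counts in WT iGB6, against 667, 674 and 299 in IgHMOG iGBGFP. The WT iGB6 libraries lay between the lowest and the other IgHMOG iGBGFP libraries. The log2 fold change was 0.22 with a 95% interval of -0.41 to 0.84 (limma adjusted p = 0.677), and it turned to -0.17 without IgHMOG iGBGFP replicate 3. It was 0.086 without WT iGB6 replicate 3, 0.40 without the female library of either group and 0.50 without IgHMOG iGBGFP replicate 2. Of 7 genes of neutral lipolysis, 1 passed: Abhd5, the co-activator of the same lipase, was higher, with 930 in WT iGB6 and 497 in IgHMOG iGBGFP (limma adjusted p = 0.0315). Pnpla2, the gene of the lipase itself, had a log2 fold change of -1.02 and did not pass (limma adjusted p = 0.0717). It averaged 420 in WT iGB6 and 810 in IgHMOG iGBGFP. The lipid droplet gene Plin2 had a log2 fold change of 0.031.

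**Figure D2:**
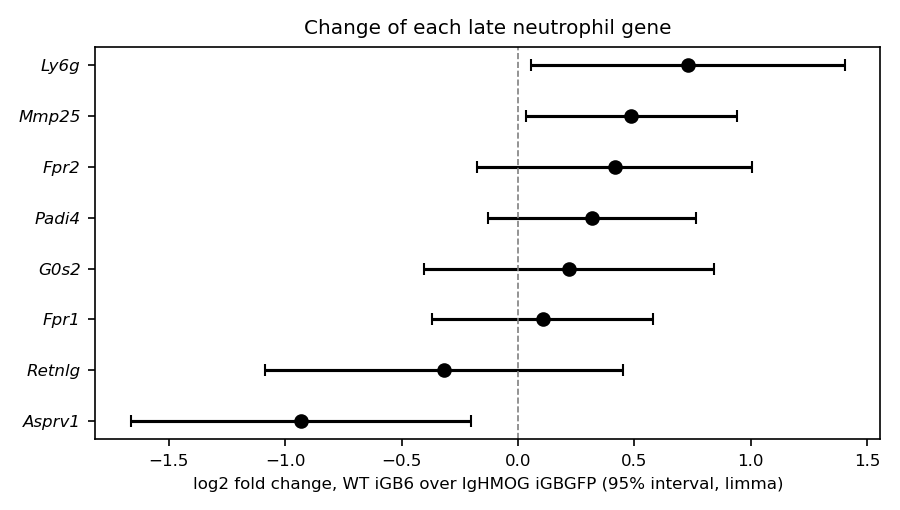
Log2 fold change of each gene (x axis, WT iGB6 over IgHMOG iGBGFP, limma with sex as a term), with its 95% interval before adjustment. Ly6g (0.73) and Asprv1 (-0.93) lie at the ends, and no gene passed after adjustment over all genes.

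The median log2 fold change of the 8 genes was 0.27, against 0.017 over all genes tested, with 6 values above 0 and 2 below. In the female pair the log2 difference of WT iGB6 minus IgHMOG iGBGFP was 0.041 for Ly6g, -0.0097 for Mmp25, -0.12 for Fpr2 and -0.085 for Padi4. In the males it was 1.07 for Ly6g, 0.73 for Mmp25, 0.69 for Fpr2 and 0.52 for Padi4, with limma adjusted p values from 0.126 to 0.334. Retnlg differed by -0.83 in the female pair and -0.064 in the males, and Asprv1 by -0.54 and -1.13. The interaction of sex and group passed for 0 of the 8 genes in limma, and for 0 of all genes tested. At an unadjusted p under 0.05 it was 0 of 8, against 1.49% of all genes tested, and sex coincides with replicate number 1.

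Levels per kilobase of exon sequence put the 8 genes in an order. In WT iGB6 it ran from Retnlg (45350 ± 9442 normalized counts per kilobase) through Ly6g (3737 ± 1198), Fpr1 (2407 ± 376), Fpr2 (1100 ± 325), Padi4 (1038 ± 144), G0s2 (687 ± 67.8) and Mmp25 (506 ± 82.2) to Asprv1 (339 ± 155; SD, n = 3). The libraries of Ly6g and Fpr1, of Fpr2 and Padi4, and of Mmp25 and Asprv1 overlapped, so these neighbours were not separated. In IgHMOG iGBGFP the first 3 kept their places, Padi4 stood before Fpr2, and Asprv1 stood before Mmp25. Its libraries overlapped between all neighbours in that order other than Retnlg and Ly6g, and Fpr1 and Padi4. There Retnlg had 63590 ± 35538 per kilobase and Asprv1 613 ± 168 (SD, n = 3).

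**Figure D3:**
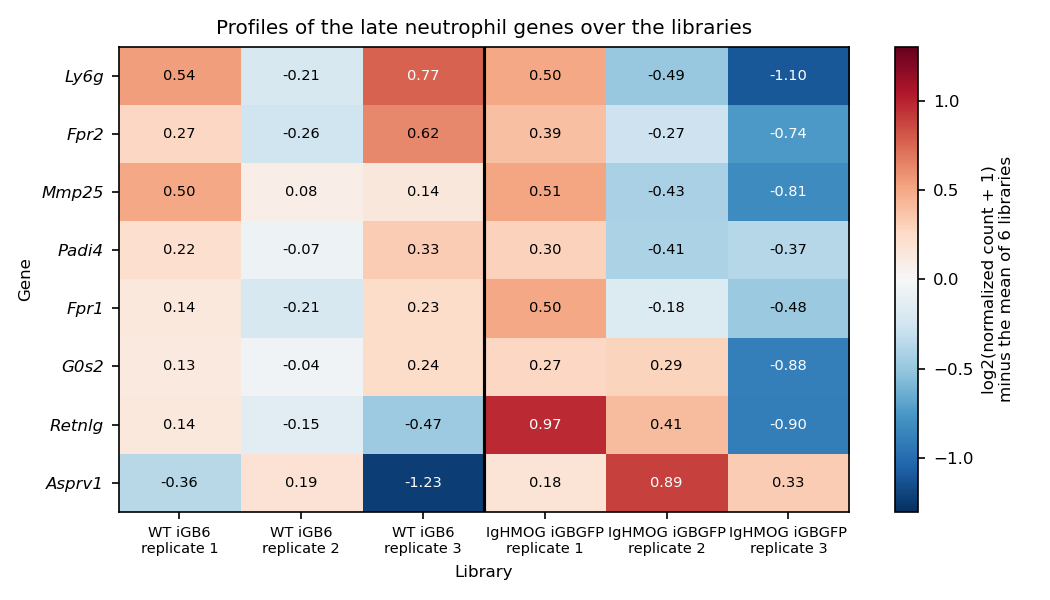
Log2(normalized count + 1) of each gene (rows) in each library (columns, WT iGB6 left of the line), minus the gene's mean over the 6 libraries, printed and shaded. Ly6g is lowest in IgHMOG iGBGFP replicate 3 (-1.10), while Asprv1 is lowest in WT iGB6 replicate 3 (-1.23).

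Profiles over the 6 libraries were compared by the root mean square difference of log2 values after each gene's mean was taken off. Among the 8 genes Fpr1 and Padi4 were the closest pair (0.15), and Ly6g and Asprv1 the farthest (1.23). Of 5095 genes with a mean of at least 100 normalized counts, those closest to Fpr2 were S100a9 (0.043), Wfdc21 (0.044) and S100a8 (0.052). S100a8 and S100a9 encode the calprotectin subunits, which fill the cytosol of neutrophils. The closest to Ly6g were Rhou (0.075), Trp53inp2 (0.087) and Mgst2 (0.095), and the closest to Asprv1 were Sbno2 (0.097), Lrrc25 (0.12) and Nlrp12 (0.12). Padi4 was closest to Pygl (0.047), Rab20 (0.060) and Slc35e1 (0.062). Mmp25 was closest to Osbpl7 (0.058), Actn1 (0.12) and Rab3d (0.12), and Fpr1 to Cdk11b (0.063), Cd37 (0.073) and Aktip (0.084). G0s2 was closest to Lamtor4 (0.11), Rnf125 (0.11) and Ndufb7 (0.12), and Retnlg, with the least close neighbours, to Vasp (0.20), Timp2 (0.23) and R3hdm4 (0.28).

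Ratios between the 8 genes within a library were also compared. Of their 28 pairs, 4 had ratios that did not overlap between the groups, against 23.6% of all pairs of tested genes above 0 in every library, so the count is no result about the 8 genes. For a single ratio an exact permutation test of 3 against 3 libraries cannot go below p = 0.1. Fpr1 over Fpr2 was 2.33, 2.63 and 1.95 in WT iGB6, against 2.75, 2.71 and 3.06 in IgHMOG iGBGFP, lower in every WT iGB6 library. Ly6g over Fpr1 was 1.14, 0.865 and 1.25 in WT iGB6, against 0.863, 0.695 and 0.560 in IgHMOG iGBGFP, with the closest values nearly equal. Ly6g over Retnlg was also higher, and Retnlg over Mmp25 lower, in every WT iGB6 library.

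The 8 genes were then set beside lists for the stages of neutrophil maturation. Of 9 tested primary granule and precursor genes, 9 were higher in WT iGB6, with a median log2 fold change of 2.21. Mpo, which encodes myeloperoxidase, had 8033, 6272 and 1696 normalized counts in WT iGB6, against 634, 521 and 222 in IgHMOG iGBGFP (limma adjusted p = 0.00622). Fcnb, a ficolin of granulocyte precursors, averaged 6866 in WT iGB6 and 1929 in IgHMOG iGBGFP (limma adjusted p = 0.00157). Ms4a3 and Prss57 were higher by log2 fold changes of 2.21 and 1.66, and the protease inhibitor gene Serpinb1a, the most abundant of the list, by 1.08. The count of 9 was 0 without IgHMOG iGBGFP replicate 2, 2 without IgHMOG iGBGFP replicate 3, 4 without WT iGB6 replicate 1 and 5 without IgHMOG iGBGFP replicate 1. It was 0 without the sex term and 4 in the males alone, a comparison that the fits without replicate 1 of either group repeat.

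Of 17 secondary and tertiary granule genes, 3 were higher in WT iGB6 and 14 did not pass, with a median log2 fold change of 0.72. Those that passed were Abca13 (1.19), Orm1 (1.14) and Itgb2l (1.11), while Ngp, the most abundant, had 0.90 (limma adjusted p = 0.266). The count of 3 was 0 without IgHMOG iGBGFP replicate 2 or replicate 3, and 1 without IgHMOG iGBGFP replicate 1 or WT iGB6 replicate 1. It was 0 without the sex term, 1 in the males alone and 7 in DESeq2. Of 24 other tested late neutrophil genes, 6 were lower and 18 did not pass, with a median of -0.76. The niacin receptor gene Hcar2 had 167, 344 and 111 normalized counts in WT iGB6, against 554, 953 and 650 in IgHMOG iGBGFP (limma adjusted p = 0.0187). Selplg, a ligand of selectins, was lower by a log2 fold change of -1.16 and the lectin gene Clec4d by -2.14. S100a8, the most abundant, had 0.51 (limma adjusted p = 0.444). It was also listed as a marker of neutrophils in general, as were Lcn2 (0.78), Itgam (0.49), S100a9 (0.45), Csf3r (-1.12) and Cxcr2 (-0.90). The count of 6 was 0 without WT iGB6 replicate 1 and without each IgHMOG iGBGFP library in turn. Without WT iGB6 replicate 2, 14 passed, 13 of them lower and 1 higher. The count was 0 without the sex term and in the males alone.

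**Figure D4:**
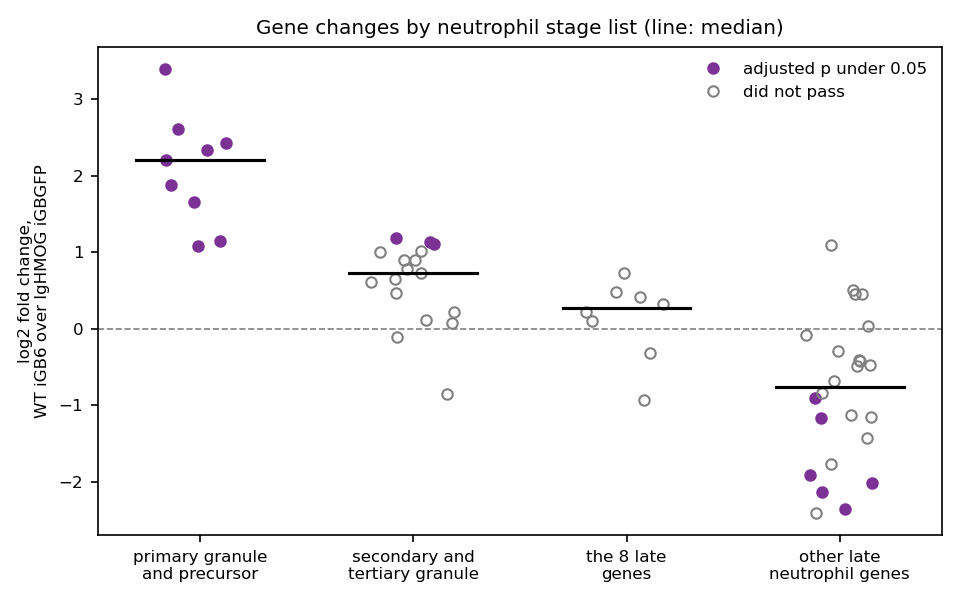
Log2 fold change (y axis, WT iGB6 over IgHMOG iGBGFP) of each tested gene of 4 lists, filled where the adjusted p passed and open where it did not, with a line at the median. The medians are 2.21, 0.72, 0.27 and -0.76 from left to right, and none of the 8 late genes is filled.

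Within each library the summed level of the 8 genes was divided by that of the primary granule and precursor genes. The ratio was 1.37, 1.54 and 1.79 in WT iGB6, against 5.86, 6.94 and 4.64 in IgHMOG iGBGFP, with no overlap. Without Retnlg it was 0.489, 0.527 and 0.841 in WT iGB6, against 1.49, 1.67 and 1.80 in IgHMOG iGBGFP. Over the secondary and tertiary granule genes, again without Retnlg, it was 0.0101, 0.0126 and 0.0103 in WT iGB6, against 0.0135, 0.0170 and 0.0181 in IgHMOG iGBGFP. Each ratio was lower in every WT iGB6 library, and none was tested. Of the other genes tested, 87.5% were also lower over the summed primary list in every WT iGB6 library. Over the summed secondary and tertiary list it was 15.7%. The ratios over the primary list thus describe the denominator and are no result about the 8 genes. The summed level of the primary granule and precursor genes did not overlap between the groups, while that of the secondary and tertiary granule genes did. The 8 genes made up 0.652 ± 0.0820% of normalized counts in WT iGB6 and 0.859 ± 0.339% in IgHMOG iGBGFP, and the primary granule and precursor genes 0.426 ± 0.107% in WT iGB6 and 0.146 ± 0.0478% in IgHMOG iGBGFP (SD, n = 3 each). For the 8 genes the libraries overlapped, at 0.561 to 0.718% in WT iGB6 and 0.497 to 1.17% in IgHMOG iGBGFP. Most of this share was Retnlg, which alone held 0.513% of the counts of all libraries. Of the 8, only Retnlg and Asprv1 had lower means in WT iGB6.

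Single genes gave the same comparison against all genes. Over Mpo, 8 of 8 genes were lower in every WT iGB6 library, as were 96.4% of the other genes tested, and over the summed primary granule list 8 of 8 were lower, against 87.5%. These shares describe the denominators and are no result about the 8 genes. Over Ngp, 3 of 8 (Retnlg, Fpr1 and Fpr2) were lower in every WT iGB6 library, against 15.2% of the other genes. Over the summed secondary and tertiary granule list, 4 of 8 (the same genes and Mmp25) were lower, against 15.7%. These denominators were all chosen after values were seen, and the list sums after the counts over Mpo and Ngp.

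**Figure D5:**
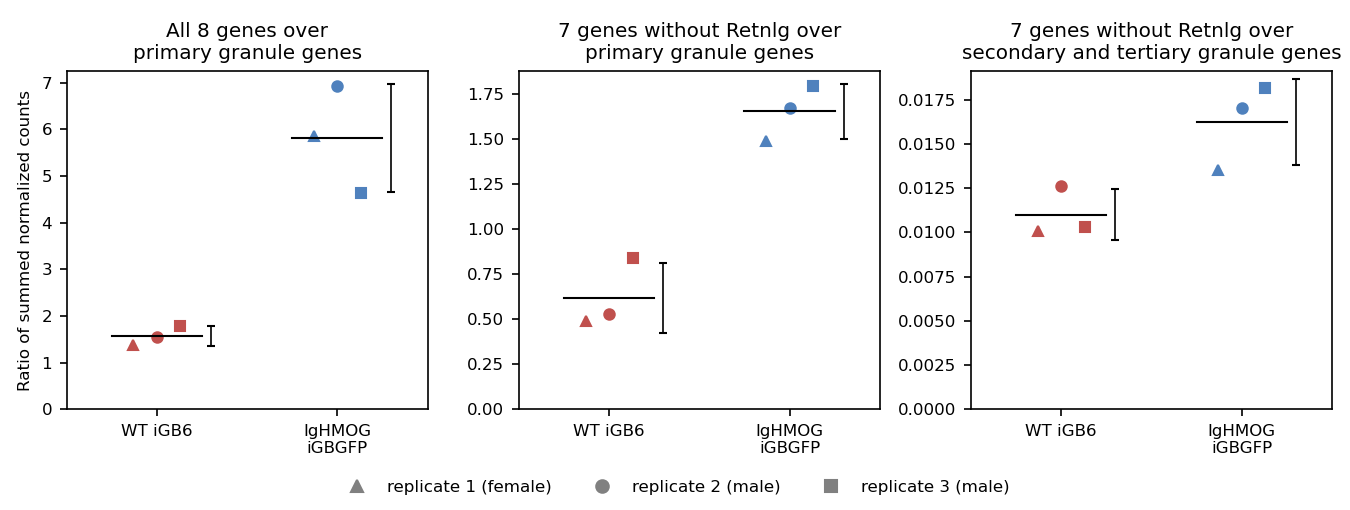
Ratios of summed normalized counts (y axes, from 0) in each library, WT iGB6 left and IgHMOG iGBGFP right, with a line at the mean and a bar for the SD (n = 3 each). All 8 genes over the primary granule genes averaged 1.57 in WT iGB6 and 5.81 in IgHMOG iGBGFP. Over that denominator, 87.5% of the other genes tested were also lower in every WT iGB6 library.

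Markers of other cell types were summed in each library, and those of basophils, mast cells and dendritic cells did not overlap between the groups. Of single genes tested, 23.6% did not overlap. Summed basophil and mast cell markers ran from 460 to 1683 normalized counts in WT iGB6 and from 1801 to 7391 in IgHMOG iGBGFP, with 4 of 6 lower. Prss34, the most abundant of them, averaged 733 in WT iGB6 and 3222 in IgHMOG iGBGFP. Its libraries overlapped and it did not pass (limma adjusted p = 0.126). Summed dendritic cell markers ran from 54.5 to 212 in WT iGB6 and from 359 to 1183 in IgHMOG iGBGFP, with 3 of 4 tested lower. Cd209a, the most abundant of these, averaged 33.1 in WT iGB6 and 511 in IgHMOG iGBGFP (limma adjusted p = 0.00157). Summed monocyte markers overlapped, at 12617 to 22058 in WT iGB6 and 16786 to 34074 in IgHMOG iGBGFP, with 2 of 6 lower. No marker of these 3 lists was at 0 in any library. Summed eosinophil, red pulp macrophage, natural killer cell, B cell, T cell and erythroid markers each overlapped between the groups, with eosinophil markers at 580 to 731 in WT iGB6 and 572 to 646 in IgHMOG iGBGFP. Of the 25 tested genes of these 6 lists, 0 passed in limma, edgeR or DESeq2. At an unadjusted p under 0.05 there were 8 in limma, against 24.5% of all genes tested, 7 in edgeR and 8 in DESeq2. In limma 5 of these were among the 6 erythroid markers, whose log2 fold changes ran from 0.85 to 1.17, all higher in WT iGB6. The part of any of these cell types in the values of the 8 late genes was not tested.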

How the data were processed

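The 6 libraries, 3 per group, came from CD11b+ cells of the spleen, and by the labels no mouse was used more than once. According to the labels' protocols, 8 to 16 ng of RNA went through 17 and then 9 amplification cycles. No molecular identifiers are described. Per the submitters' processing notes, the tools were STAR 2.7.10b and featureCounts 2.0.3, with cutadapt 4.4, FastQC 0.74 and DESeq2 2.11.40.7, and the builds were mm10 and GRCm38. The sources used here do not state the annotation, the strand setting or how multiply mapped reads were treated.

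Deposited signal values are counts per gene that the authors divided by 1 size factor per library. Dividing each column by its step gave whole reads for 100% of values within 0.001. The step of IgHMOG iGBGFP replicate 3 is close to 1, so the step says less about that column, but it was used like the others. The authors' deposited comparison holds per gene a log2 fold change, its Wald score, and p-values before and after adjustment, in columns without names that were identified from their values.

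GENCODE M21 (GRCm38) gave symbols, coordinates and exon lengths for 42548 of 43432 genes. Groups were compared with limma 3.58.1 (R 4.3.3), using a variance trend on log2(normalized count + 1), two-sided, for the 9923 genes whose mean reached 10, in a model of group plus sex. This scale understates changes of low genes. edgeR 4.0.16 and DESeq2 1.42.0 on the recovered reads, other pseudocounts, filters, scalings, covariates and left-out libraries were alternatives. The limma fit was tested on simulated data. There, 60 of 103 genes changed by a log2 of 1 passed (58.3%), and 94 of 97 changed by a log2 of 2 (96.9%). Of the genes left unchanged, 10 passed. Changes were placed only in genes with higher means, and no sex effect or shift of a whole library was simulated. These rates therefore do not carry over to the real libraries. RefSeq promoter windows were found for all 8 genes.

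The 8 genes and the lists were chosen with earlier results of these data known. Named beside the 8 were, from each list, up to 4 called genes with the smallest p and the most abundant gene, and for likeness the 3 closest genes. The lists of other cell types were given as sums and counts, and this rule was not followed for them. Genes named outside the rule (Itgam, Retn, Anxa1, Pnpla2, Lcn2, Prss34 and Cd209a among them) were chosen after their values were seen.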

Additional observations from a re-analysis of the deposited data

How the results depend on the processing

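The count of 607 genes was 951 in DESeq2, 1079 without a filter, 10 without the sex term, 134 in males alone, 1443 with library weights and 4 to 1083 with 1 library left out. For the 8 genes the count of 0 was 1 without a filter (Asprv1) and 0 to 2 with 1 library left out. For other late genes the count of 6 was 12 without a filter and 0 without the sex term or in males alone. It was 13 with library weights and 0 to 14 with 1 library left out. Of the 14, 13 were lower and 1 higher. For secondary and tertiary granule genes the count of 3 was 7 in DESeq2, 0 without the sex term and 1 in males alone. It was 0 to 4 with 1 library left out, and of the 4, 3 were higher and 1 lower. For primary granule and precursor genes the count of 9 was 0 without the sex term, 4 in males alone and 0 to 9 with 1 library left out. The log2 fold change of Fpr1 turned to -0.075 with library weights and ran from -0.088 (without WT iGB6 replicate 3) to 0.34 with 1 library left out, and that of G0s2 from -0.17 (without IgHMOG iGBGFP replicate 3) to 0.50. The cause was not tested. With 3 libraries per group, a gene that did not pass is not shown to be unchanged.

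With the replicate number as a block, 1001 genes passed over all, 1 of the 8 genes (Asprv1, adjusted p = 0.0224 in limma) and 13 other late genes. Libraries with the same number deviated together with correlations over genes of 0.48, 0.35 and 0.041, and WT iGB6 replicate 3 was nearer to IgHMOG iGBGFP replicate 1 (0.085), so the numbers are no proof of pairing.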
